A study of Mus musculus with 9 samples.

Results

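Serum response factor (SRF) and 9 contractile genes that it controls through actin were followed in wild type MEFs (mouse embryonic fibroblasts, strain C57Bl/6) under hyperosmotic stress. The set held Srf, Acta2, Actb, Actg1, Actg2, Tagln, Cnn1, Myl9, Tpm1 and Myh9, taken by gene symbol, and all 10 were found among the 35275 genes of the deposited table. Cells were left in iso-osmolar medium, or were exposed for 3 h to low-intensity stress (500 mOsm, 200 mM sucrose added) or high-intensity stress (600 mOsm, 300 mM sucrose added). RNA with a poly-A tail was sequenced as 3 libraries per treatment, 9 in all, and both intensities were compared with the same 3 iso-osmolar libraries. The labels do not say whether the 3 libraries of a treatment came from separate cultures, so p-values measure only the spread between these samples, which may be technical.

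SRF is a transcription factor of the MADS-box family that binds a short DNA element, the CArG box. With the cofactors MRTF-A and MRTF-B, which are held inactive by monomeric actin and released when actin polymerises, it drives genes of the actin cytoskeleton, Srf itself included. With the ternary complex factors Elk1, Elk3 and Elk4, which respond to MAP kinase signalling, it drives immediate early genes such as Fos. In fibroblasts the actin branch of this system supplies stress fibres and contractile force.

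The element through which SRF acts was found in some of the promoters, and the 200 bases before the annotated start are shown for Srf, Actg1 and Myl9, which hold a full box, and for Acta2, which holds near matches, together with Zfp36, an immediate early gene whose box has the same letters as one of the boxes of Srf. They are reference sequences from RefSeq (GRCm38.p6), written 5′ to 3′ on the strand of the gene. Capitals mark CArG boxes, 10 bases made of CC, 6 bases that are each A or T, and GG; in Acta2 alone, they mark boxes with 1 base other than A or T among the inner 6. The windows are chr17:46556163-46556362 (Srf, minus strand), chr11:120348496-120348695 (Actg1, minus), chr2:156775264-156775463 (Myl9, plus), chr19:34255374-34255573 (Acta2, minus) and chr7:28379229-28379428 (Zfp36, minus).
Srf: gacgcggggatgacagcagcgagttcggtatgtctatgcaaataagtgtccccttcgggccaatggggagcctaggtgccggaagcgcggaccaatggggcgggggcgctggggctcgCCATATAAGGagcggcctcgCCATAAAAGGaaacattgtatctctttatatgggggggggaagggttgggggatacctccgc
Actg1: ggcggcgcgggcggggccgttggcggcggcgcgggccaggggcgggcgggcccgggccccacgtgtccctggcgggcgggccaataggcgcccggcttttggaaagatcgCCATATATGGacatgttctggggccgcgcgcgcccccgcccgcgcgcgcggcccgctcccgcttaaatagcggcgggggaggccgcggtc
Myl9: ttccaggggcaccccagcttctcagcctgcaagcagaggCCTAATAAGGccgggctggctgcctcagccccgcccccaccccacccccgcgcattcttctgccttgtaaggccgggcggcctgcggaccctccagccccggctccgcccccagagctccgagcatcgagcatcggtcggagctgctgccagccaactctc
Acta2: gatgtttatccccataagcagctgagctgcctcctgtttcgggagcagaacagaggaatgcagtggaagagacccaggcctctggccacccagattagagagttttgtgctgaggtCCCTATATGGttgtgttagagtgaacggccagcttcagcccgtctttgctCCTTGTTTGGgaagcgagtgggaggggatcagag
Zfp36: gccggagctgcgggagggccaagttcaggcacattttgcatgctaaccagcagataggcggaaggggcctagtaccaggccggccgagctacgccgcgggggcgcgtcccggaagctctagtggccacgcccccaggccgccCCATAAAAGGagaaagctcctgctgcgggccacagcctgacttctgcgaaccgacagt
Srf held a pair of boxes, from -82 to -73 and from -62 to -53 relative to its start, Actg1 held a single box from -90 to -81, and Myl9 held a single box from -161 to -152. In windows from 250 bases before to 50 bases after the start, which were in the reference table for 7 of the 10 genes, 3 held a full CArG box, against 1.63% of the 32851 windows of all genes. The element reads as a CArG box on both strands. With 1 mismatch allowed in the 4 outer bases, 4 of 7 windows matched (13.9% of all windows), Tpm1 being added, and with 1 mismatch in the 6 inner bases, 4 of 7 matched (9.98% of all windows), Acta2 being added. The windows of Cnn1 and Myh9 matched under none of the 3 settings. Actb, Actg2 and Tagln had no entry in the reference table.

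Total counts per library ran from 21716042 to 26740832, and 3 counts, the smallest signal considered, were worth 0.113 to 0.137 CPM (counts scaled to a common normalised library size; a floor that covers counting error only). Differences were tested by edgeR's quasi-likelihood test on the 13082 genes with enough counts, all 10 members among them, and a gene was called where its p-value adjusted by the Benjamini-Hochberg method was under 0.05. Levels of different genes were compared as FPKM, which divides the count by the gene length and the total count. A list of 12 fibroblast markers summed to 21460 to 22851 CPM in iso-osmolar medium, 21142 to 22198 CPM at 500 mOsm and 23982 to 26032 CPM at 600 mOsm. Of these 12, Dcn had at most 3 counts and Lum at most 1 in any library. Means went both ways. Col3a1 had 47.5, 19.7 and 30.3 CPM and Pdgfra 37.7, 23.3 and 23.6 CPM in the 3 treatments. Pdgfrb had 265, 299 and 325 CPM and Fbln1 56.4, 61.2 and 73.3 CPM. A list of 6 markers of differentiated smooth muscle summed to 281 to 290, 254 to 283 and 229 to 241 CPM in the 3 treatments, nearly all of it from Smtn, a filament-associated protein (means of 280, 266 and 229 CPM), while Myh11 stayed at or below 0.533 CPM and Myocd at or below 3 counts in every library. The endothelial list of 4 genes, led by Pecam1 under stress, summed to 0.778 to 0.8996, 12.0 to 13.4 and 2.13 to 3.18 CPM. The epithelial list of 5 genes, led by Cdh1 at 500 mOsm, summed to 0.205 to 0.491, 4.04 to 4.80 and 0.348 to 0.628 CPM, and the macrophage and leukocyte list of 4 genes to 12.2 to 12.9, 15.7 to 17.1 and 11.3 to 12.1 CPM. A striated muscle list of 7 genes summed to 51.7 to 53.6, 53.6 to 53.9 and 48.3 to 53.0 CPM. Nearly all of this striated sum came from Tnnt2 (means of 52.7, 52.8 and 49.1 CPM). Most of the macrophage and leukocyte sum came from Csf1r (means of 11.2, 14.5 and 9.92 CPM). The part of these lists in the results was not tested. In bulk RNA, fewer cells of a type and less RNA per cell cannot be told apart.

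Before stress, the genes spanned more than 3 orders of magnitude in FPKM. Actb and Actg1, the cytoplasmic beta and gamma actins, led with mean FPKM of 3957 ± 30.4 and 2512 ± 48.2 (SD, n = 3). Tropomyosin 1 (Tpm1, which lies along the actin filament) had a mean FPKM of 392 ± 19.4, and transgelin (Tagln, an actin-bundling protein) of 372 ± 16.7, with overlapping libraries. They were followed by Myh9, the heavy chain of non-muscle myosin IIA, at 290 ± 2.33 FPKM and by Acta2, smooth muscle alpha actin, at 223 ± 8.21 FPKM. The FPKM of Srf (109 ± 8.27) and of Myl9, a regulatory myosin light chain (107 ± 1.87), overlapped. Actg2, the enteric smooth muscle actin, had 8.39 ± 0.246 FPKM, and calponin 1 (Cnn1), a marker of differentiated smooth muscle, had 1.23 ± 0.131 FPKM.

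The order of the levels shifted with stress. At 600 mOsm, the FPKM of Myh9 ran from 199 to 219 and lay below that of Acta2 (228 to 236), whereas in the iso-osmolar libraries Myh9 (288 to 292 FPKM) lay above Acta2 (214 to 231 FPKM). Srf also lost its place beside Myl9: its FPKM was 82.3 to 96.7 under low and 75.02 to 88.9 under high intensity, below every Myl9 library of the same treatment (108 to 119 and 115 to 121 FPKM). Tpm1 lay above Tagln without overlap at 500 mOsm (383 to 443 against 355 to 368 FPKM), while the libraries of the 2 genes overlapped at 600 mOsm.

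**Figure D1:**
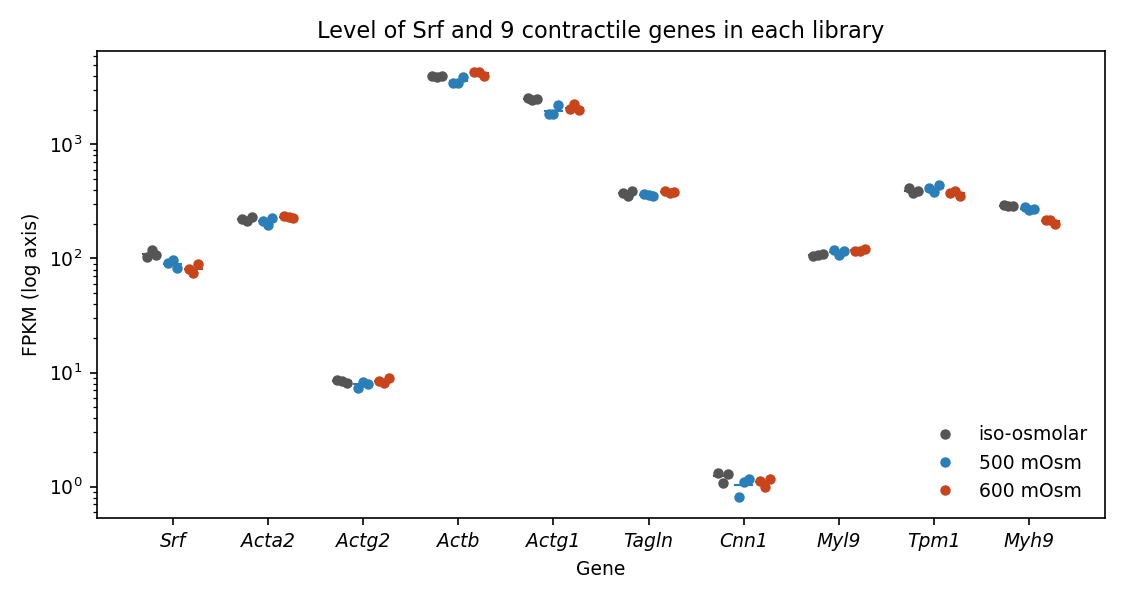
FPKM of Srf and 9 contractile genes (log axis) in each of 9 libraries. Points are libraries, coloured by treatment, and short lines are the means of 3; Actb and Actg1 sit highest, Actg2 and Cnn1 lowest, and the steps between treatments are small beside the distance between genes.

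Between 3 and 4 of the 10 genes changed in each comparison, and by small amounts. At 500 mOsm, 3 genes were lower than in iso-osmolar medium (Srf, Actb and Actg1) and 0 were higher by edgeR, where 28.0% of all tested genes were called (14.8% lower, 13.2% higher). The count of higher genes was also 0 at an unadjusted p under 0.05 and by DESeq2 and limma. At 600 mOsm, 3 genes were lower (Srf, Actg1 and Myh9) and 1 was higher (Myl9), where 35.1% of all tested genes were called (20.0% lower, 15.1% higher). Between the intensities, Actb and Acta2 were higher and Myh9 was lower at 600 mOsm, 3 genes in all, where 29.1% of all tested genes were called (11.9% higher, 17.2% lower). With 3 or 4 of 10 genes called in each comparison, the share of the set lay near that of all genes.

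The changes in the set were small. The largest absolute log2 fold change in the set was 0.35 at 500 mOsm, 0.44 at 600 mOsm and 0.36 between the intensities, so that 0 of 10 genes passed an absolute log2 fold change of 0.5 in any comparison. Of all tested genes, 20.8%, 19.9% and 17.9% passed it in the same 3 comparisons. The median absolute log2 fold change of the set was 0.10, 0.13 and 0.13, beside 0.17, 0.22 and 0.18 over all tested genes. All tested genes include many with low counts and less precise values. The SE of every member but Cnn1 lay below their median SE (0.0992 to 0.0997), and genes of a like level were not compared. The libraries of the treatments compared did not overlap for 5 of 10 genes at 500 mOsm (40.9% of all tested genes), for 6 of 10 at 600 mOsm (48.4%) and for 5 of 10 between the intensities (41.5%).

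**Figure D2:**
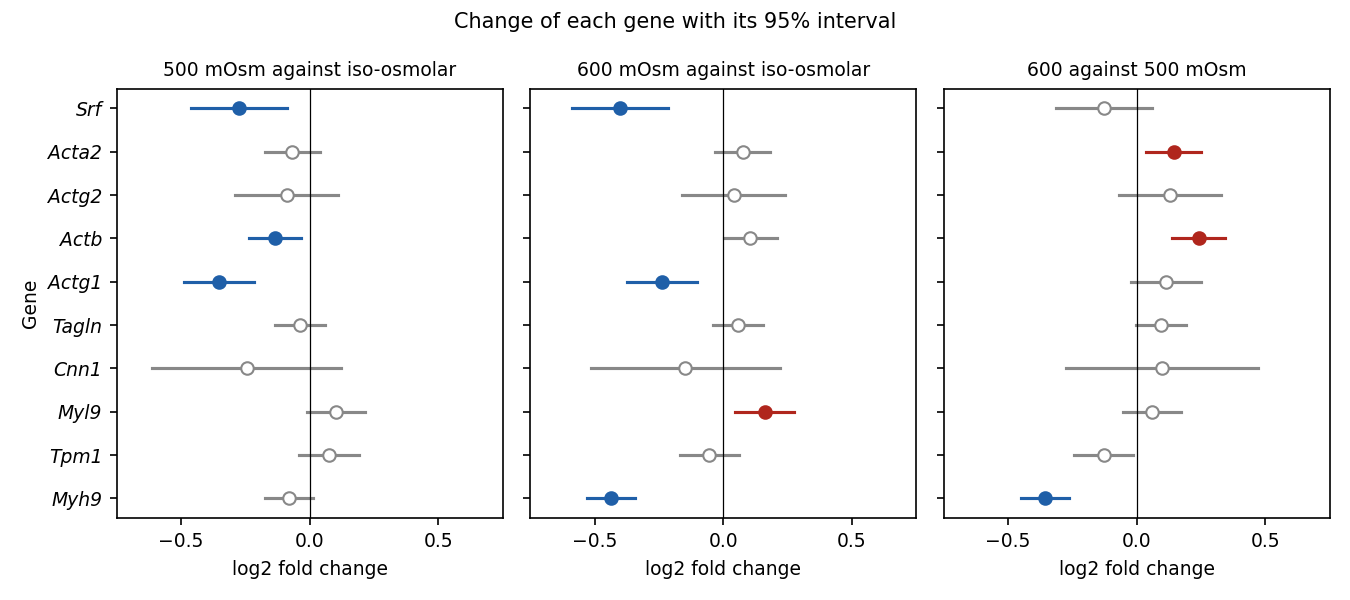
Log2 fold change of each gene with its 95% interval in the 3 comparisons, from edgeR. Filled points passed the threshold (blue lower, red higher) and open points did not; Srf and Actg1 are blue at both intensities, Myh9 is blue at 600 mOsm, and all estimates stay within 0.5 of the zero line.

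Srf transcript fell with both intensities of stress. Srf (ENSMUSG00000015605, chr17:46546839-46556162, minus strand, mm10) had 414, 488 and 433 CPM in the iso-osmolar libraries, 373, 399 and 333 CPM at 500 mOsm, and 333, 304 and 374 CPM at 600 mOsm. Every stressed library lay below every iso-osmolar library, while the 2 stressed groups overlapped. At 500 mOsm, Srf fell by 17.3% (log2 fold change -0.27, SE 0.0856, adjusted p = 0.0296 by edgeR). At 600 mOsm it fell by 24.3% (log2 fold change -0.40, SE 0.0857, adjusted p = 0.00312 by edgeR). Between the intensities the log2 fold change was -0.13 with a 95% interval from -0.31 to 0.06 (edgeR, adjusted p = 0.299), so a difference was not detectable at this precision.

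The call at 600 mOsm held when any library was left out, whereas the call at 500 mOsm was lost in 3 of 9 such fits. Of the 11 other fits, only that with the replicate number as a block lost it (log2 fold change -0.27, edgeR, adjusted p = 0.0669). Without iso-osmolar library 2, the highest of the 9, the log2 fold change of Srf at 500 mOsm was -0.21 (edgeR, adjusted p = 0.119); without 500 mOsm library 3 it was -0.21 (adjusted p = 0.112), and without 500 mOsm library 1 it was -0.28 (adjusted p = 0.0628). When each library was corrected for GC content and length, the Srf values spread less (SE 0.0366 to 0.0367), the log2 fold changes became -0.35 and -0.52, and the difference between the intensities, -0.17, was called (edgeR, adjusted p = 0.00287).

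Of the actins, Actg1 was lower under stress at both intensities. Actg1 (chr11:120345690-120348542, minus strand) had 4942, 4846 and 4853 CPM in iso-osmolar medium, 3582, 3631 and 4252 CPM at 500 mOsm, and 4048, 4363 and 3994 CPM at 600 mOsm. All 6 stressed libraries lay below the 3 iso-osmolar ones, and 500 mOsm library 3 lay within the 600 mOsm group. Actg1 fell by 21.7% at 500 mOsm (log2 fold change -0.35, SE 0.0624, adjusted p = 0.000857) and by 15.3% at 600 mOsm (-0.24, SE 0.0623, adjusted p = 0.0102, both by edgeR). Between the intensities the log2 fold change was 0.11 (95% interval -0.02 to 0.25, edgeR, adjusted p = 0.199), and without 500 mOsm library 3 it was 0.20 and was called (adjusted p = 0.0105). The call at 600 mOsm was lost with upper quartile factors in place of TMM (log2 fold change -0.15, adjusted p = 0.0842).

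Several processed pseudogenes are near-identical to Actg1, and reads could have been split between them. Gm12715, which matches Actg1 over 1128 bases at 99.6% identity, held 1477 to 1905 counts, beside 87393 to 118667 counts for Actg1. Its log2 fold changes were -0.27 at 500 mOsm and -0.22 at 600 mOsm (edgeR, adjusted p = 0.00604 and 0.0196), the direction of Actg1.

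Actb was lowest at 500 mOsm and highest at 600 mOsm, and the difference between the intensities was the firmest of its results. Actb (chr5:142903115-142906754, minus strand) had 7527, 7590 and 7568 CPM in iso-osmolar medium, 6596, 6723 and 7331 CPM at 500 mOsm, and 8337, 8208 and 7858 CPM at 600 mOsm. The 3 groups did not overlap, with 500 mOsm lowest and 600 mOsm highest. Between the intensities Actb was 1.18-fold higher at 600 mOsm (log2 fold change 0.24, SE 0.0470, adjusted p = 0.00201 by edgeR), a call that held in all 11 other fits and without any library. The fall at 500 mOsm (log2 fold change -0.14, edgeR, adjusted p = 0.0482) was lost in 9 of 11 other fits and in 6 of 9 fits that left out a library (log2 fold change -0.18 to -0.11). At 600 mOsm against iso-osmolar medium the log2 fold change was 0.11 (95% interval 0.00 to 0.21, edgeR, adjusted p = 0.101).

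The balance of the 2 cytoplasmic actins differed between the treatments. The ratio of Actb to Actg1 FPKM was 1.55, 1.59 and 1.59 in iso-osmolar medium, 1.87, 1.88 and 1.75 at 500 mOsm, and 2.09, 1.91 and 2.00 at 600 mOsm. The 3 groups did not overlap and stepped upward, with means of 1.58 ± 0.0236, 1.84 ± 0.0718 and 2.00 ± 0.0906 (SD, n = 3). The exact two-sided permutation test gave p = 0.1 in each of the 3 comparisons, the smallest value that 3 against 3 libraries allow. Over 6 actin genes, the summed FPKM was 6700 ± 78.8, 5780 ± 454 and 6542 ± 305, and Actg1 made up 37.5%, 33.9% and 32.1% of it.

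**Figure D3:**
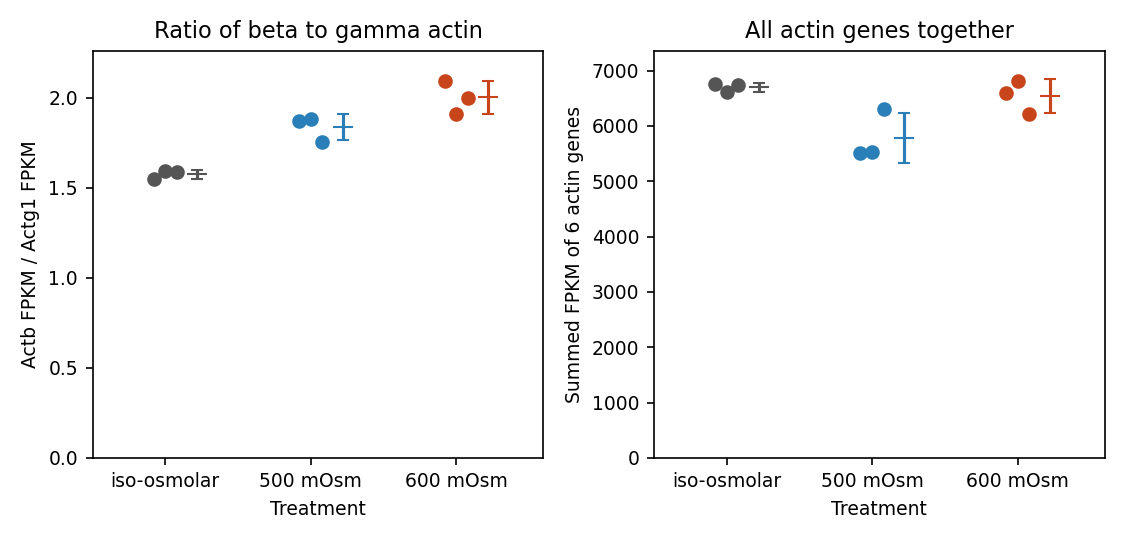
Left, ratio of Actb to Actg1 FPKM, and right, summed FPKM of the 6 actin genes, by treatment. Points are libraries and bars are mean ± SD of 3; the ratio steps from 1.58 to 1.84 to 2.00 without overlap, while the sum dips at 500 mOsm and the 600 mOsm libraries reach back to the iso-osmolar range.

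The smooth muscle actins were not called against iso-osmolar medium. Acta2 (chr19:34241090-34255336, minus strand) had 394, 385 and 407 CPM in iso-osmolar medium, 382, 353 and 396 CPM at 500 mOsm, and 425, 407 and 417 CPM at 600 mOsm. The 500 mOsm group overlapped the iso-osmolar group and lay below the 600 mOsm group. The log2 fold change of Acta2 was -0.07 at 500 mOsm (95% interval -0.17 to 0.04) and 0.08 at 600 mOsm (-0.03 to 0.18), neither called, and 0.14 between the intensities (SE 0.0491, edgeR, adjusted p = 0.0451). That last call was lost in 6 of 11 other fits and in 7 of 9 fits without a library (log2 fold change 0.11 to 0.18). Actg2 (chr6:83512905-83536265, minus strand) lay between 9.80 and 12.2 CPM in all 9 libraries, with 239 to 316 counts, and its log2 fold changes of -0.09, 0.04 and 0.13 were not called.

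Among the motor and filament genes, Myh9 gave the clearest change, and it appeared at 600 mOsm. Myh9 (chr15:77760587-77842175, minus strand) had 2147, 2154 and 2137 CPM in iso-osmolar medium, 2110, 1990 and 1986 CPM at 500 mOsm, and 1620, 1613 and 1521 CPM at 600 mOsm. The 600 mOsm libraries lay far below the other 6, and the 500 mOsm libraries lay just under the iso-osmolar ones. Myh9 fell by 26.2% at 600 mOsm (log2 fold change -0.44, SE 0.0428, adjusted p = 7.71e-06) and was lower by a log2 fold change of -0.36 against 500 mOsm (SE 0.0428, adjusted p = 4.87e-05, both by edgeR). At 500 mOsm the log2 fold change was -0.08 (95% interval -0.17 to 0.01, edgeR, adjusted p = 0.188). After the GC and length correction, the values of Myh9 were -0.13, -0.30 and -0.17 at 500 mOsm, at 600 mOsm and between the intensities, all called (edgeR, adjusted p = 0.0367, 0.000137 and 0.0106).

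Myl9, whose product binds the neck of the myosin heavy chain, lay on the other side of zero. Myl9 (chr2:156775420-156781658, plus strand) had 117, 122 and 121 CPM in iso-osmolar medium, 134, 123 and 130 CPM at 500 mOsm, and 133, 129 and 141 CPM at 600 mOsm. All 6 stressed libraries lay above the iso-osmolar ones, by a narrow margin for 500 mOsm library 2. Myl9 was 1.12-fold higher at 600 mOsm (log2 fold change 0.16, SE 0.0521, adjusted p = 0.0307 by edgeR), and its log2 fold change at 500 mOsm was 0.10 (95% interval -0.01 to 0.22, edgeR, adjusted p = 0.173). The call at 600 mOsm was lost in 5 of 9 fits without a library (log2 fold change 0.12 to 0.19), and after the GC and length correction the value was 0.01 (adjusted p = 0.88). The 2 myosin chains of the set were thus called in opposite directions at 600 mOsm, the heavy chain in every fit and the light chain in some.

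Tpm1, Tagln and Cnn1 were not called in any comparison. Tpm1 (chr9:67022590-67049406, minus strand) had 1091 to 1181 CPM in iso-osmolar medium, 1115 to 1265 CPM at 500 mOsm and 1043 to 1114 CPM at 600 mOsm; its log2 fold change between the intensities was -0.13 (95% interval -0.24 to -0.01, edgeR, adjusted p = 0.0893). Tagln (chr9:45929628-45936058, minus strand) had 569 to 612, 557 to 583 and 588 to 629 CPM in the 3 treatments. Its 95% intervals against iso-osmolar medium, -0.14 to 0.06 at 500 mOsm and -0.04 to 0.16 at 600 mOsm on the log2 scale, were among the narrowest in the set. Tagln overlaps Pcsk7 by 65 bases on the opposite strand, and whether counting used strand is not given in the sources used here; Pcsk7 held 1885 to 2448 counts, beside 12790 to 15972 for Tagln. Cnn1 (chr9:22099281-22109630, plus strand) had 47 to 74 counts, or 1.93 to 3.10 CPM, and its intervals were wide, -0.61 to 0.12 under low and -0.52 to 0.22 under high intensity.

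Within a treatment, the libraries of most members stayed close together. The coefficient of variation of CPM was 0.385% for Myh9 and 0.426% for Actb in iso-osmolar medium, and was 8.64%, 9.08% and 10.4% for Srf in the 3 treatments, above that of Tagln (3.67%, 2.46% and 3.44%). Cnn1, the lowest in counts, reached 18.3% at 500 mOsm. The share of all counts taken by the 10 genes was 1.74% ± 0.0203 without stress, 1.54% ± 0.0904 under low and 1.63% ± 0.0692 under high intensity (SD, n = 3), with Actb alone at 0.760%, 0.690% and 0.806%.

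Most of the cofactors that work with SRF fell as well. Of 8 listed cofactors, 6 had enough counts to be tested, and 0 rose and 4 fell at 500 mOsm, 0 rose and 5 fell at 600 mOsm, and 0 rose and 3 fell between the intensities by edgeR. The shares of all tested genes called lower in these comparisons were 14.8%, 20.0% and 17.2%. Those called higher were 13.2%, 15.1% and 11.9%. In all 3 comparisons the count of cofactors that rose was also 0 at an unadjusted p under 0.05 and by DESeq2 and limma. Their median log2 fold change was -0.30 at 500 mOsm and -0.63 at 600 mOsm, beside 0.01 over all tested genes in both comparisons. Myocd, the cofactor of smooth and cardiac muscle, had at most 3 counts and Abra, an actin-binding activator of MRTF, at most 2, so neither was tested.

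Elk3, a ternary complex factor that can repress SRF targets, fell most of the 6 at 600 mOsm. It had 111, 111 and 108 CPM in iso-osmolar medium, 75.8, 74.9 and 77.0 CPM at 500 mOsm, and 50.7, 51.1 and 49.8 CPM at 600 mOsm. The 3 groups were tight and far apart. The log2 fold change of Elk3 was -0.53 at 500 mOsm (SE 0.0448, adjusted p = 1.79e-06), -1.12 at 600 mOsm (SE 0.0458, adjusted p = 5.19e-09) and -0.59 between the intensities (adjusted p = 1.27e-06, all by edgeR). Its relatives fell at both intensities too, Elk4 by 0.58 and by 0.76 on the log2 scale (edgeR, adjusted p = 0.000375 and 5.08e-05), and Elk1 by 0.30 and by 0.43 (adjusted p = 0.00776 and 0.000677). For neither was the difference between the intensities called (log2 fold changes -0.18 and -0.13, adjusted p = 0.174 and 0.206).

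Both MRTF genes were lower at 600 mOsm. Mkl1, which encodes MRTF-A, had 186, 206 and 190 CPM in iso-osmolar medium, 165, 172 and 141 CPM at 500 mOsm, and 136, 124 and 140 CPM at 600 mOsm, with the 3 groups apart. Its log2 fold changes were -0.28 and -0.54 (edgeR, adjusted p = 0.0118 and 0.000141). Mkl2, which encodes MRTF-B, had 25.7, 25.9 and 24.98 CPM, 21.4, 19.2 and 21.6 CPM, and 16.5, 18.0 and 12.0 CPM, again without overlap. Its log2 fold change was -0.30 at 500 mOsm (95% interval -0.56 to -0.04, edgeR, adjusted p = 0.0831) and -0.72 at 600 mOsm (adjusted p = 0.000634). Between the intensities both MRTF genes were called lower (log2 fold changes -0.26 and -0.42, adjusted p = 0.0215 and 0.0206); the call for Mkl1 was lost in 4 of 9 fits without a library and that for Mkl2 in 3 of 9 (log2 fold changes -0.34 to -0.19 and -0.54 to -0.26), and the Mkl2 value was -0.19 after the GC and length correction (adjusted p = 0.18). Scai, a repressor of MRTF, had log2 fold changes of 0.30, 0.04 and -0.25, none called, at 3.28 to 6.11 CPM.

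**Figure D4:**
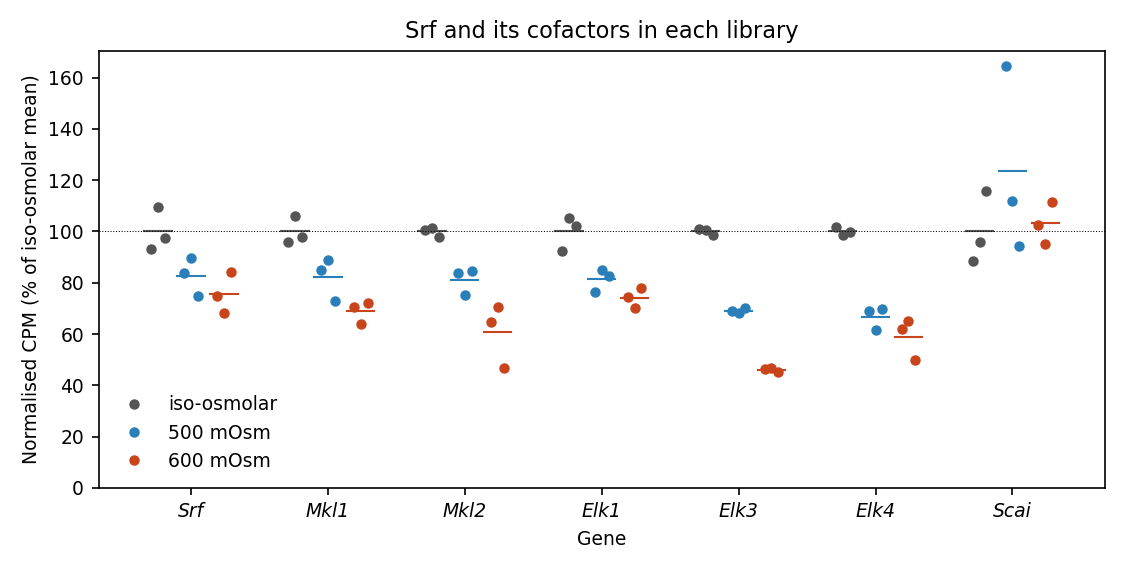
Normalised CPM of Srf and its 6 tested cofactors in each library, as a percentage of the iso-osmolar mean of the gene. Points are libraries and lines are means of 3; Elk3 steps down to 46.2%, 46.6% and 45.4% in the 600 mOsm libraries, while Scai stays around 100% with 1 library at 165%.

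In a wider list of cytoskeletal SRF targets, genes were called in both directions. Of 34 listed genes, 31 were tested, and 4 rose and 7 fell at 500 mOsm, 5 rose and 12 fell at 600 mOsm, and 2 rose and 9 fell between the intensities, with median log2 fold changes of -0.04, -0.11 and -0.09. The share called was 35.5%, 54.8% and 35.5%, beside 28.0%, 35.1% and 29.1% of all tested genes, which were also called lower more often than higher. Lima1, which cross-links actin filaments, fell most against iso-osmolar medium at both intensities (log2 fold changes -0.69 and -0.82, edgeR, adjusted p = 9.82e-06 and 2.65e-06). It had 73.8 to 85.7 CPM in iso-osmolar medium, 47.8 to 51.7 CPM at 500 mOsm and 42.5 to 48.9 CPM at 600 mOsm. Between the intensities its log2 fold change of -0.14 was not called (edgeR, adjusted p = 0.181). Pdlim5, a scaffold of the Z-disc and of stress fibres, had log2 fold changes of -0.63 and -0.69, and Tgfb1i1, a focal adhesion adaptor, of -0.48 and -0.46, all 4 called.

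Fhl2, a LIM protein of focal adhesions, rose at 500 mOsm, from a mean of 79.8 to 111 CPM (log2 fold change 0.47, edgeR, adjusted p = 0.000215), and was at 75.2 CPM at 600 mOsm (-0.09 against iso-osmolar medium, adjusted p = 0.378; -0.56 against 500 mOsm, adjusted p = 6.97e-05). Its relative Fhl1 had log2 fold changes of 0.24 and 0.19 (edgeR, adjusted p = 0.0365 and 0.0823), the first lost in 5 of 9 fits without a library (0.18 to 0.32). Among myosin genes outside the set, Myh10, the heavy chain of non-muscle myosin IIB, followed the direction of Myh9 with log2 fold changes of -0.13 at 500 mOsm (not called) and -0.69 at 600 mOsm (edgeR, adjusted p = 6.16e-05). The light chains Myl12b and Myl6 were higher at 600 mOsm, as was Myl9 (log2 fold changes 0.19 and 0.23, edgeR, adjusted p = 0.0407 and 0.0025), and Myl12b was higher at 500 mOsm as well (0.41, adjusted p = 0.000411). The call for Myl12b at 600 mOsm was lost in 6 of 9 fits without a library (0.14 to 0.23). Myl12b has a close paralog, Myl12a, with which it may share reads.

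The filament linkers of the same list went different ways. Actn1, alpha actinin 1, was lower at 600 mOsm (log2 fold change -0.26, edgeR, adjusted p = 0.000302), and Cnn2, the non-muscle relative of Cnn1, was higher (0.25, adjusted p = 0.00229). Filamin A (Flna) was higher at 600 than at 500 mOsm (log2 fold change 0.17, edgeR, adjusted p = 0.00485), and its log2 fold changes against iso-osmolar medium, -0.09 and 0.08, were not called. Acta1, skeletal alpha actin, was called higher at both intensities (edgeR, adjusted p = 0.047 and 0.00246) at levels near the floor of 3 counts, with means of 0.156, 0.445 and 0.763 CPM, and the call at 500 mOsm was lost in 7 of 9 fits without a library.

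The listed immediate early SRF targets had larger changes than the contractile genes, mostly upward at 500 mOsm and downward at 600 mOsm. This list was chosen with earlier results of these data known, and whether its changes came through SRF was not tested. Of 16 listed genes, 11 rose and 3 fell at 500 mOsm (median log2 fold change 1.48), whereas 1 rose and 13 fell at 600 mOsm (median -0.66), and 0 rose and 13 fell between the intensities by edgeR (median -1.75). Of all tested genes, 13.2% rose and 14.8% fell at 500 mOsm, 15.1% and 20.0% at 600 mOsm, and 11.9% and 17.2% between the intensities. At an unadjusted p under 0.05, 1 gene was higher between the intensities, and by DESeq2 and limma 0 were. Fos, the founding target of the SRF and Elk complex, had 2.91, 3.07 and 2.54 CPM in iso-osmolar medium, 38.9, 38.3 and 42.6 CPM at 500 mOsm, and 2.72, 2.597 and 2.28 CPM at 600 mOsm. Fos stood apart in the 500 mOsm libraries, with a log2 fold change of 3.81 (edgeR, adjusted p = 6.07e-11) and of -0.17 at 600 mOsm (95% interval -0.45 to 0.12).

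Ier3, a survival gene of the early response, had 124, 133 and 127 CPM, then 848, 909 and 976 CPM, and 49.3, 43.1 and 47.1 CPM in the 3 treatments. It rose at 500 mOsm and fell at 600 mOsm (log2 fold changes 2.83 and -1.46, edgeR, adjusted p = 1.05e-11 and 1.09e-08). Egr1 and Arc, both activity-induced genes, had the same pattern, with log2 fold changes of 2.16 and 2.20 at 500 mOsm and of -0.26 and -0.77 at 600 mOsm, all called. Egr3, a zinc finger factor related to Egr1, went the other way at 500 mOsm, from 22.1, 26.6 and 23.1 CPM to 3.94, 3.69 and 4.20 CPM, and had 3.26, 3.36 and 3.98 CPM at 600 mOsm (log2 fold changes -2.60 and -2.75, edgeR, adjusted p = 5.45e-09 and 6.31e-09).

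Fosl1, a relative of Fos, and Btg2, an antiproliferative gene, also fell at both intensities (log2 fold changes of Fosl1 -0.76 and -1.10, of Btg2 -1.70 and -1.25). Egr4 was called higher at both (edgeR, adjusted p = 0.0416 and 0.0155) at means of 0.0546, 0.402 and 0.512 CPM, with at most 4 counts in an iso-osmolar library, and the calls were lost in 4 of 9 and 3 of 9 fits without a library. Zfp36, shown above for its box and named after its values were seen, had 7.74, 8.64 and 9.90 CPM in iso-osmolar medium, 29.4, 28.1 and 31.1 CPM at 500 mOsm, and 7.62, 7.88 and 6.92 CPM at 600 mOsm. Zfp36 rose at 500 mOsm (log2 fold change 1.75, edgeR, adjusted p = 5.58e-08) where Srf, with the same 10 letters from -62 to -53, fell.

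**Figure D5:**
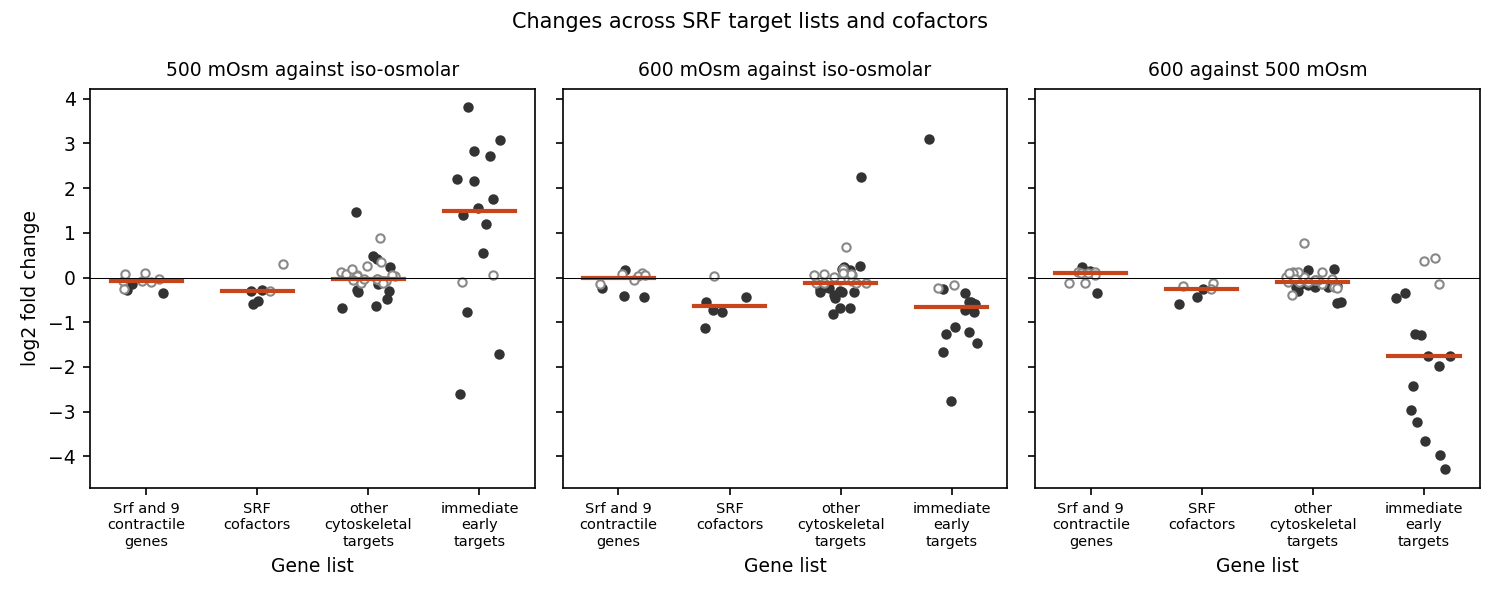
Log2 fold changes of the tested genes in 4 lists, in the 3 comparisons. Each point is a gene, filled where it passed the threshold, and red lines are medians; the 10 contractile genes stay near zero, while the immediate early targets have a median of 1.48 at 500 mOsm and of -0.66 at 600 mOsm.

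Full CArG boxes were found in 10 of 39 promoter windows of the wider cytoskeletal list (25.6%) and in 5 of 15 windows of the immediate early list (33.3%), beside 0 of 11 windows of the cofactors. The share over the 32851 windows of all genes was 1.63%. Some genes have more than 1 window, and the boxes lay in 9 of 31 genes with a window in the cytoskeletal list and in 2 of 11 in the immediate early list (Egr2 and Zfp36). Over all genes with a window, they lay in 488 of 27025. Overlapping windows of Egr2 held the same box, which raised the 33.3%. A match describes the letters alone.

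The genes closest to Srf in their pair of log2 fold changes against iso-osmolar medium, among the 8439 genes whose log2 CPM averaged 3 or more, were Atmin, Mtpn, Mfsd7b, Rnf138 and Dcp1a. Atmin had -0.27 and -0.40 and Mtpn had -0.28 and -0.39, beside -0.27 and -0.40 for Srf, a likeness over 3 treatments that share the iso-osmolar libraries. The genes closest to Acta2 were Dpy30, Ppp1r8, Cotl1, Zfp410 and Rrp9, which had log2 fold changes of -0.07 to -0.06 at 500 mOsm and of 0.07 at 600 mOsm, none called.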

How the data were processed

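RNA-seq was available for MEFs in iso-osmolar medium or after 500 or 600 mOsm, 3 libraries each, grouped by the treatment in the labels. The authors deposited one table of 35275 genes with raw read counts per gene and library, taken without normalisation. Per the file headers the table also gives FPKM, and the deposited FPKM equalled counts divided by gene length and total count. The submitters' processing notes name CASAVA 1.8, STAR and mm10; the counting tool is not given in the sources used here. The table's fold changes and p-values of the authors were not used.

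Counts were scaled by TMM and tested in edgeR 4.0.16 (R 4.3.3, quasi-likelihood test, all 9 libraries in one fit, filterByExpr, 13082 genes), with Benjamini-Hochberg adjustment over all genes tested and a threshold of 0.05. Total counts of 21716042 to 26740832 gave a median SE of 0.0992 to 0.0997 per log2 fold change. The libraries of a treatment differed by more than counting noise, so none was counted as a duplicate. The procedure was tested on simulated data with 200 changed genes. The planted changes were all larger than those of the members, so changes of the members' size were not covered. Alternatives were other scaling factors and count filters, DESeq2 1.42.0, limma 3.58.1 on log2 FPKM with 1 or 0.1 added, a fit of 2 groups, the replicate number as a block, stricter thresholds and each library left out. A correction for GC content and length (13022 genes with a value) and the inner mismatch in the CArG search were added after seeing the data.

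Named genes were the 10 members, all tested cofactors, from each of 2 other lists up to 3 genes in each direction and comparison, those with the smallest p past the threshold, and the 5 genes nearest to Srf and to Acta2. Zfp36, Egr2, Myl12a, Pecam1, Cdh1, Smtn, Myh11, Tnnt2, Csf1r, Dcn, Lum, Col3a1, Pdgfra, Pdgfrb, Fbln1 and the genes that share sequence with members were named besides. The members and lists were chosen with earlier results of these data known. The older symbol Emr1 of 1 listed gene was added to match the table. A further list of signalling genes is not reported here. Shared sequence was searched for the members alone (at least 100 bases at 95% identity).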

Additional observations from a re-analysis of the deposited data

How the results depend on the processing

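Of the 72 log2 fold changes called for named genes, 0 reversed under any alternative; the calls for Actg1 at 500 mOsm, Srf and Myh9 at 600 mOsm, and Myh9 and Actb between the intensities held in all 11 other fits and without any library. The causes of the other shifts were not tested. Counts of genes per list moved as follows. With a log2 fold change of 1 or more in size required, 0 members passed in any comparison, and the lists held 0 cofactors and 1 cytoskeletal target at 500 mOsm, 1 of each at 600 mOsm and 0 of each between the intensities, and 12, 7 and 11 immediate early genes in the 3 comparisons. Among all 13082 tested genes, 1122, 742 and 857 passed that size in the same comparisons. At an adjusted p under 0.01, 1 member was lower at 500 mOsm, 0 were higher at 600 mOsm, and 1 member was higher, 1 cofactor and 7 cytoskeletal targets were called between the intensities. At that threshold, 1337 of all 13082 tested genes were lower at 500 mOsm and 995 were higher at 600 mOsm. Between the intensities, 790 were higher and 1562 lower. The members higher at 600 mOsm numbered 4 with upper quartile factors, 2 in a fit of 2 groups, and 0 without the count filter or with the GC content and length correction. The members higher between the intensities numbered 4 with upper quartile factors, and 1 with library size alone, with at least 10 counts in every library, in a fit of 2 groups, and with limma on log2 FPKM with 1 or 0.1 added; 2 were lower there with the GC content and length correction.

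Upper quartile factors turned the split of all genes from 1977 higher and 2617 lower to 3347 and 2012 at 600 mOsm, and from 1560 and 2250 to 2719 and 1850 between the intensities, where the GC content and length correction gave 2236 and 2118. Values that were not called reversed as follows on the log2 scale: with upper quartile factors Tpm1 (0.035) and Fhl2 (0.0029) at 600 mOsm and Fhl1 (0.018) and Pdlim5 (0.013) between the intensities; with the GC content and length correction Actg2 (-0.051), Tagln (-0.015), Dpy30 (-0.043), Cotl1 (-0.064) and Rrp9 (-0.073) at 600 mOsm and Myl9 (-0.019), Pdlim5 (0.029) and Dcp1a (0.054) between the intensities; and Tgfb1i1 between the intensities with library size alone (-0.0018) and limma (-0.0020 and -0.0022).

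With a library left out, members lower at 500 mOsm ranged from 1 to 3, members higher at 600 mOsm from 0 to 2, and members higher and cofactors called between the intensities from 1 to 3 each. Uncalled values that changed sign ranged from -0.14 to 0.012 (Cotl1) at 500 mOsm, from -0.012 to 0.085 (Actg2) and -0.036 to 0.16 (Scai) at 600 mOsm, and from -0.041 to 0.19 (Cnn1), -0.0055 to 0.055 (Tgfb1i1), -0.40 to 0.66 (Egr4) and -0.41 to 0.0024 (Scai) between the intensities.

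Replicate numbers gave no sign of pairing on average. The deviations of same-numbered libraries correlated at a mean of -0.245 over 9 pairs (-0.709 to 0.637), and those of other pairs at 0.124 (-0.315 to 0.628). These ranges overlap widely, so they do not settle whether samples were paired. With the replicate number as a block, members lower at 500 mOsm numbered 1, members higher at 600 mOsm 0 and between the intensities 1. Depth limits Cnn1, Scai, Acta1 and Egr4, whose intervals are wide. The SE of Actg2 (0.0918 to 0.0921) lay just below the median of all tested genes (0.0992 to 0.0997).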
